A study of Mus musculus with 2 samples.

Results

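The neuronal cytoskeleton and axon growth genes described here are 10 of the 36493 gene names on a pair of expression arrays. The set holds 5 microtubule genes of young neurons (Dcx, Tubb3, Map2, Mapt and Stmn2) and 5 neurofilament and growth cone genes (Ina, Nefl, Nefm, Nefh and Gap43). They were chosen by gene symbol, over every non-control probe of both arrays, and repeat spots of a probe were averaged. This gave 17 probes on 26 spots, out of 55674 probes. The array lists Map2 under its older symbol Mtap2, so that 15 of the probes were found by symbol and the 2 of Map2 by their RefSeq accession.

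The RNA came from mouse neural stem and progenitor cells, obtained from embryonic stem cells by way of embryoid bodies. Both samples were tertiary neurospheres, floating spheres of such cells, at passage 2 and at day 18 counted from the embryoid bodies. One sample overexpressed the microRNA miR-153 and the other was labelled as the control for overexpression. The vector, the ES cell line and the strain are not given in the sources used here. There was 1 array in each group, so the differences carry no replicate error and none was tested.

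Neurons are built on parallel microtubules, which are polymers of alpha and beta tubulin. Doublecortin (Dcx), tau (Mapt) and MAP2 bind and stabilise them, and stathmin family proteins such as Stmn2 bind free tubulin and keep the microtubules of growing tips dynamic. Neurofilaments are the intermediate filaments of neurons. They are assembled from a light, a medium and a heavy chain (Nefl, Nefm and Nefh) together with alpha-internexin (Ina), which is expressed earlier in development than the triplet. GAP-43 (Gap43) is a membrane-bound phosphoprotein of growth cones, the motile tips of extending axons. In neurosphere cultures several of these genes, such as Tubb3 and Dcx, are used as marks of neurons. Nestin and vimentin are filaments of the stem and progenitor cells around them. Which cells held the signal of each member, Gap43 among them, was not tested.

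The agent of the experiment is shown first, with the part of each strand that pairs with targets, the seed (bases 2 to 8), in capitals. The labels do not say which strand was meant, so both mature strands of the RefSeq entry are given (GRCm38.p6, chromosome 12, plus strand, 117250860 to 117250881 for the 3p strand and 117250821 to 117250843 for the 5p strand).
mmu-miR-153-3p: uUGCAUAGucacaaaagugauc
mmu-miR-153-5p: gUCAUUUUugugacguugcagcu

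A pair of probes is shown because one carries the best measured lower member and the other a higher member, and because each has 1 reading frame of 3 without a stop codon. The Nefm probe lies on the minus strand of chromosome 14, 68738193 to 68738252, and the Mapt probe on the plus strand of chromosome 11, 104189430 to 104189489, both on mm9.
Nefm probe: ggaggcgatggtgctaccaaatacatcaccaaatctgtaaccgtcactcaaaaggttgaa
Mapt probe: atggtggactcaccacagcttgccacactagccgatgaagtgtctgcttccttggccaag
The complement of the 3p seed, CTATGCA, was in 0 of the members' 17 probe sequences and in 0.336% of all 55681 non-control probe sequences. That of the 5p seed, AAAATGA, was in 0 of 17 and in 1.12%. A probe covers 60 bases of a transcript, so these counts say only that the letters are not in those windows.

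The members divided, and not cleanly along the line by which they were grouped. All 5 microtubule genes had more signal on the miR-153 array, 4 of them at least 2-fold. Of the filament and growth cone genes, Nefl, Nefm and Gap43 were at least 2-fold lower, but Ina and Nefh were at least 2-fold higher. Over all 10 genes, 6 were at least 2-fold higher, 3 at least 2-fold lower and 1 (Map2) between. For comparison, 20490 genes had a value on each array, of which 9.21% were at least 2-fold higher and 11.1% at least 2-fold lower. The 2-fold rule is a fixed size and not a test, and a gene counted as measured when a probe of it was well above background on both arrays.

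The level given throughout is the processed signal on a log2 scale, relative to the 75th percentile of that array, which was 435 intensity units in the control and 549 with miR-153. A difference is the miR-153 level minus the control level, and its median over all genes was -0.11. Of the genes past 2-fold, 45.4% were higher, and 64.9% when the arrays were scaled on spike-in RNA, which added 0.24 to every difference. Well above background were 52.5% of 59305 non-control spots in the control and 55.6% with miR-153, with no saturated spot. Repeat spots of a probe had a median SD of 0.075 in the difference (288 probes), and different probes of a gene one of 0.24 (3442 genes). These SDs cover the array alone, since no second culture was measured. In bulk RNA, fewer cells of a type and less RNA per cell cannot be told apart.

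**Figure D1:**
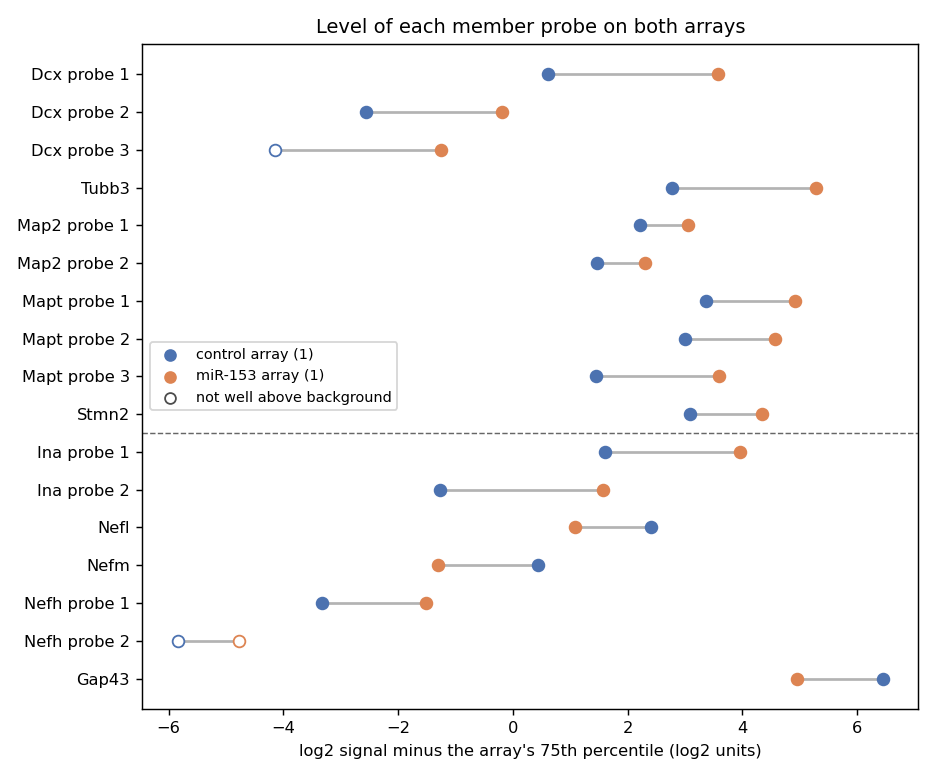
Level of each of the 17 member probes in the control (blue) and with miR-153 (orange), in log2 units relative to the 75th percentile of the array, with open circles for probes not well above background. Microtubule genes stand above the dashed line and filament and growth cone genes below it, and Nefl, Nefm and Gap43 are the only genes whose orange point lies to the left.

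Doublecortin, which stabilises microtubules in migrating young neurons, had the largest difference of the members. Its brightest probe (chromosome X, 140290854 to 140290913, mm9, minus strand) read 665 intensity units in the control and 6580 with miR-153, which are levels of 0.61 and 3.58. The difference was 2.97, or 7.83-fold, and 54 of the 20490 genes (0.264%) differed upward by at least as much. A second Dcx probe further from the 3' end of the transcript was dimmer, at 73.8 and 483 intensity units, with a difference of 2.37. The third, at 24.7 and 230, was above background only with miR-153 and was at least 7.35-fold higher there. All 3 probes were therefore higher on the miR-153 array, and the 2 measured ones differed from each other far less than either differed between the arrays.

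Tubb3, the beta-tubulin isotype used as a mark of neurons, read 2965 intensity units in the control and 21406 with miR-153 (chromosome 8, 125945850 to 125945909, mm9). It was 5.72-fold higher (2.52), and 111 genes differed upward by at least as much. It has a single probe, whose local background on the miR-153 array carried an outlier flag while the spot itself did not. Normexp background correction, which also uses the local background, gave 2.53. The median local background of that array was 41.5 intensity units. At so high a signal the value could hardly change, so it does not check the flag.

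Tau had 3 probes, and all read higher on the miR-153 array. The brightest (chromosome 11, 104189496 to 104189555) read 4484 intensity units in the control and 16566 with miR-153, a difference of 1.55 or 2.93-fold. The probe printed above, which ends a few bases before it, read 3481 and 13105 and gave 1.58. The third lies nearer the 3' end of the transcript (chromosome 11, 104193241 to 104193300) and gave 2.16, 4.47-fold. The probes spread over more than the usual SD between probes of a gene, with the same direction on all 3. The cause of that spread was not tested.

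Stmn2, the stathmin of growing neurites, read 3708 and 11101 intensity units (chromosome 3, 8561545 to 8561604). Its difference was 1.25, or 2.37-fold higher on the miR-153 array, on a single probe. Map2, which stabilises the microtubules of dendrites, was the one member short of 2-fold. Its probes (chromosome 1, 66488783 to 66488842 and 66488543 to 66488602) read 2025 and 1209 intensity units on the control array against 4576 and 2722 on the miR-153 array. They gave 0.84 and 0.83, and 12.1% of all genes differed upward by at least as much. A further dim probe that the file describes as Map2 but lists under a transcript accession (chromosome 1, 66463380 to 66463439) gave 0.90. Map2 passed 2-fold in 1 setting, spike-in scaling, at 1.08.

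**Figure D2:**
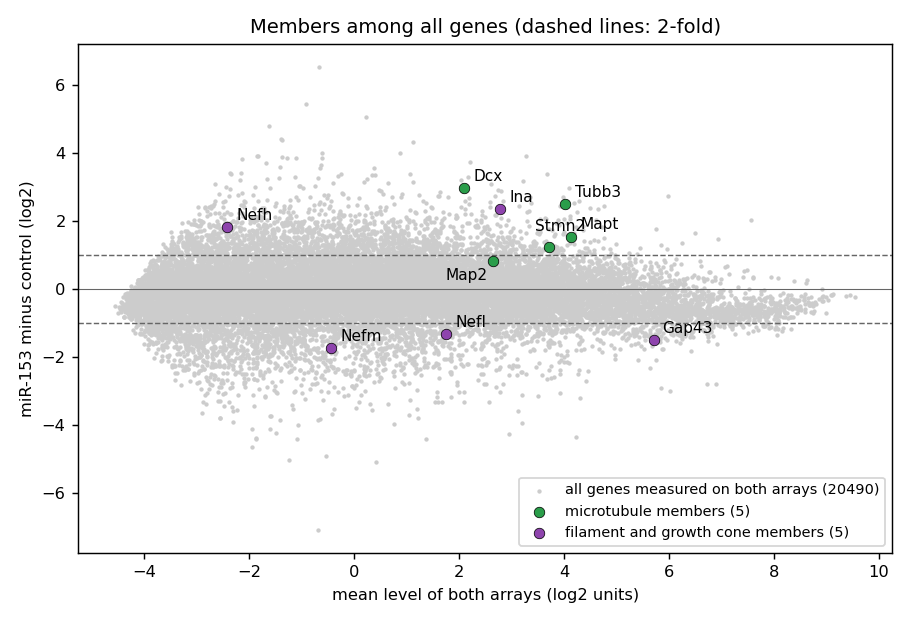
Difference between the arrays (log2, vertical axis) against the mean level of both (log2 units, horizontal axis) for 20490 genes in grey, with the 5 microtubule members in green and the 5 filament and growth cone members in purple. Dcx, Ina and Tubb3 lie at the upper edge of the cloud, Nefh among dim genes, and Gap43 below the band of the brightest genes.

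The filament genes went both ways. Alpha-internexin read 1323 intensity units in the control and 8579 with miR-153 on its brightest probe (chromosome 19, 47098781 to 47098840), a difference of 2.36 or 5.14-fold. Its second probe (chromosome 19, 47099350 to 47099409) read 181 and 1640 and gave 2.84. Both Ina probes stood with Dcx and Tubb3 in direction and size. For 154 genes the upward difference was at least that of the brightest Ina probe.

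The light and medium neurofilament chains were lower instead. Nefl read 2310 intensity units in the control and 1169 with miR-153 (chromosome 14, 68705638 to 68705698), which was 2.49-fold lower at a difference of -1.32. The single Nefm probe is spotted 10 times on each array, which makes it the member with the best known technical error. On the control array the 10 spots ranged from 555 to 609 intensity units, with a mean of 588 ± 17.5 (SD over spots). On the miR-153 array they ranged from 197 to 241, with a mean of 222 ± 10.8. The arrays did not overlap in any spot, and the difference was -1.74 ± 0.087 (SD over 10 spots), or 3.34-fold lower. One spot stood apart from the others at -1.94, and without it the mean was -1.72 ± 0.055 over 9 spots. This spread is between spots of the same labelled RNA and leaves out any spread between cultures.

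**Figure D3:**
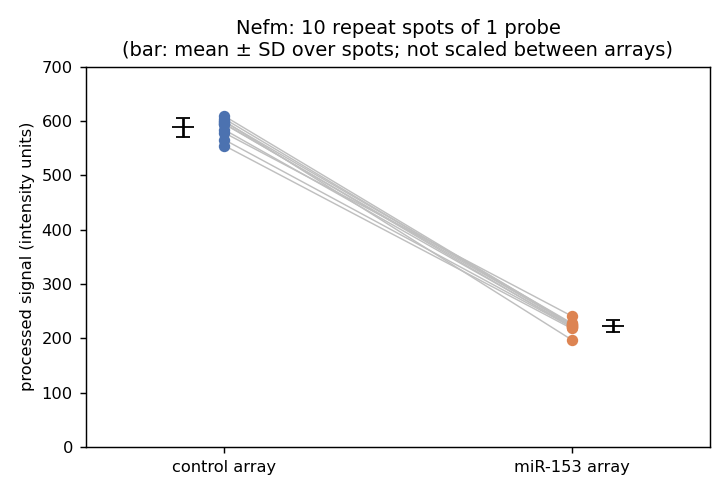
Processed signal (intensity units, from 0) of the 10 repeat spots of the Nefm probe on each array, with lines joining the same spot position and bars for the mean ± SD over spots. Control spots lie between 555 and 609 and miR-153 spots between 197 and 241, before any scaling between the arrays.

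The heavy chain, Nefh, which is the last of the triplet to appear in development, was dim. Its better probe (chromosome 11, 4838758 to 4838817) read 43.2 intensity units in the control and 193 with miR-153, levels of -3.33 and -1.51. It was 3.54-fold higher (1.82) on the miR-153 array, or just under 2-fold with normexp background correction, at 0.998. Its other probe was not well above background on either array, at 7.60 and 20.0 intensity units, and gives no difference. The Nefh result is therefore higher in direction in every setting tried, and weakly measured in size.

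Nefl and Nefm are neighbours on chromosome 14, and their probes lie 32.6 kb apart on mm9. The difference between the 2 differences was 0.42, in a range of 0.25 to 0.43 over the settings. The other named transcript with a probe within 200 kb, A230070E04Rik, was at 0.39, and so was not lower with them. It was dimmer than either, at levels of -2.80 in the control and -2.41 with miR-153. A probe that the file describes as a neurofilament medium clone (AK042598, chromosome 14, 68701166 to 68701225) was not well above background on either array.

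Setting one filament gene against another takes out the scaling between arrays. Ina moved against Nefm by 4.10 log2 units (17.2-fold), in a range of 3.81 to 4.34 over 11 settings, and against Nefl by 3.68 (12.8-fold). Nefh moved against Nefm by 3.56, or by as little as 2.47 with normexp. The filament genes thus differed unequally between these 2 arrays.

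Gap43 was the brightest member, at 38235 intensity units in the control and 17027 with miR-153 (chromosome 16, 42248714 to 42248773). It was 2.83-fold lower, at a difference of -1.503 on its single probe, and 4.87% of genes differed downward by at least as much. Quantile normalization and lowess, which take out a trend with brightness, each gave -1.10, still past 2-fold. Against it, Dcx moved by 4.47 log2 units and Stmn2, another gene of growing axons, by 2.75.

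**Figure D4:**
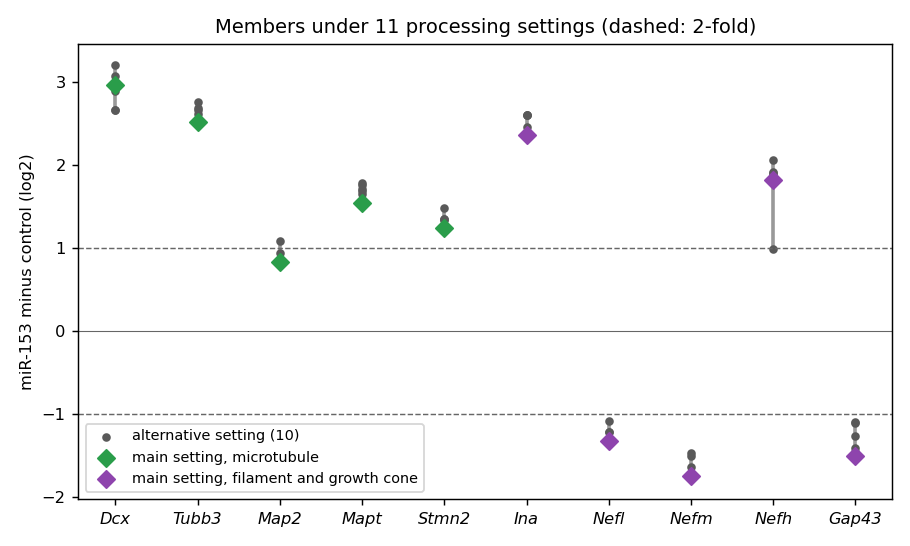
Difference of each member (log2, miR-153 minus control) in the main setting (diamonds) and in 10 alternative settings (dots), with dashed lines at 2-fold. No member changed sign; Map2 crossed the line upward with spike-in scaling and Nefh lay just under it with normexp.

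Promoter sequences were in the RefSeq table (GRCm38.p6, 250 bases before to 50 after a start) for 4 members, Dcx, Tubb3, Map2 and Ina, all of them higher on the miR-153 array. The 250 bases before the start of Tubb3 and of Ina are printed because these members had among the largest differences. Capitals mark matches, on either strand, to 5 motifs: the left and right parts of the RE1 element bound by the neuronal gene repressor REST (CAGCACC and GGACAGC), an E-box of proneural factors (CAGATG), the GC box (GGGCGG) and the TATA box (TATAAA).
Tubb3 promoter (plus strand, chr8:123411303-123411552): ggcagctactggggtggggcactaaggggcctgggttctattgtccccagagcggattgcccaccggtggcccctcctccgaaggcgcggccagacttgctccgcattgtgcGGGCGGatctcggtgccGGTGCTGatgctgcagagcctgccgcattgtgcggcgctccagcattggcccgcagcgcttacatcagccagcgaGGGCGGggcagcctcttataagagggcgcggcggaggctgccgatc
Ina promoter (plus strand, chr19:47014431-47014680): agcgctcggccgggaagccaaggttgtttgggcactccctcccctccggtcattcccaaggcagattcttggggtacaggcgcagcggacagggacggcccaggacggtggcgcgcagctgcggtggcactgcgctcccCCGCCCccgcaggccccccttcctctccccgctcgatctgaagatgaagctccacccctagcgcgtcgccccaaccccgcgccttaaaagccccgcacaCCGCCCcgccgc

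Over the whole windows, the left RE1 part was in Tubb3 and the right part in Tubb3 and Map2, against 7.14% and 6.56% of all 32851 promoter windows. The GC box was in 3 of the 4 genes (Tubb3, Map2 and Ina), against 35.7% of all windows. Dcx, with 2 windows, held the TATA box in both (13.6% of all windows), and none of the 4 held the E-box (17.2%). The windows of Tubb3, Map2 and Ina were rich in G and C, at 67.3%, 77.7% and 71.7%, against 43.0% and 44.7% for those of Dcx. So these higher members shared no single motif among those searched. A match is a string of letters and not a site shown to be bound, and no promoter was compared for the lower members.

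REST and the proteins that act with it are known as the brake on neuronal genes outside neurons. Of 9 measured genes 0 were past 2-fold in either direction, with a median of -0.32, and with so few genes that count is near the shares over all genes. Rest was at -0.62 on its brighter probe and -0.88 on the other, and Rcor1 at -0.75. The other genes of the list lay on both sides of 0, between -0.40 and 0.31 on their brightest probes. Ctdsp2 was at -0.25 on its brightest probe and down to -1.26 on another, and 1 gene of the list was past 2-fold lower when the median of a gene's probes was taken.

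The closest relatives of the microtubule members were read next, from lists of genes chosen by family. Of 7 stathmin and doublecortin relatives, 3 were at least 2-fold higher and 0 lower, with a median of 0.77. The higher ones are 42.9% of the list, against 9.21% of all genes, while 11.1% of all genes were lower. Stmn3 was 2.83-fold higher (1.501) and Stmn4 2.49-fold (1.32), which are the neuronal stathmins, and the difference of Stmn2 from Stmn3 was -0.25. Stmn1, the stathmin also used by dividing cells, was at 0.24. Dcdc2a was at 1.39 but dim, and at 0.50 with normexp. Of the doublecortin-like kinases, Dclk1 was at 0.21, Dclk2 at -0.18 (0.07 with spike-in scaling) and Dclk3 at 0.77, so Dcx moved against Dclk1 by 2.76 log2 units.

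Tubb3 stood apart from the other tubulins. Among the 15 measured, the median was 0.03, with 5 at least 2-fold lower, 10 between and 0 higher. The lower ones are 33.3% of the list, against 11.1% of all genes, while 9.21% of all genes were higher. Tubb6 was 8.36-fold lower (-3.06) and Tuba1c 4.78-fold (-2.26), both of them isotypes of many cell types. Tube1, of centrioles, was at -1.37, Tubb4b at -1.26 and Tuba1b at -1.22, although the second Tuba1b probe gave 0.31. The tubulins abundant in young neurons were near 0 in the main setting, with Tuba1a at 0.27, Tubb2a at 0.34 and Tubb2b at 0.53. After lowess on level, Tuba1a was at 1.04 and Tubb2b at 1.15, 3 tubulins were past 2-fold higher and 3 lower. Tubb3 moved against Tubb2b by 1.98 log2 units in the main setting and by at least 1.52 in the others. Tubulin genes are close copies of each other, and how far their probes share signal was not tested.

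None of 10 other structural microtubule-associated proteins passed 2-fold, and their median was 0.10. With so few genes, that count is near the shares over all genes, 9.21% higher and 11.1% lower. Map1b, an early neuronal one, was at 0.92 (1.17 with spike-in scaling), next to Map2 in size. Map4, of most cell types, was at 0.06, and Map6, which makes neuronal microtubules stable to cold, was at -0.24 on its brighter probe and 1.30 on the other.

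Among 16 proteins of microtubule tips and severing, 3 were at least 2-fold higher and 2 lower, with a median of 0.22. Those are 18.8% and 12.5%, against 9.21% and 11.1% of all genes. Camsap3, which caps minus ends, was at 1.70, and the tip-binding Mapre3 and Mapre2 at 1.36 and 1.23, though a second Mapre2 probe gave 0.44. Apc (-1.13) and Spast (-1.11), a severing enzyme, were lower, though a second Apc probe gave -0.19, and with spike-in scaling they came to -0.89 and -0.87, short of 2-fold. Among 16 enzymes that modify tubulin or tau, 4 (25%) were higher and 0 lower, against the same shares of all genes, with a median of 0.23. These were Cdk5r1, the neuronal activator of a tau kinase, 4.13-fold higher (2.05), Cdk5, that kinase, 2.44-fold (1.29), and the tubulin deacetylases Hdac6 (1.26) and Sirt2 (1.15). Cdk5r2, a second activator, was detected only with miR-153 and was at least 2.43-fold higher there. Gsk3b, another tau kinase, was at 0.22 on its brightest probe and up to 1.18 on another.

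**Figure D5:**
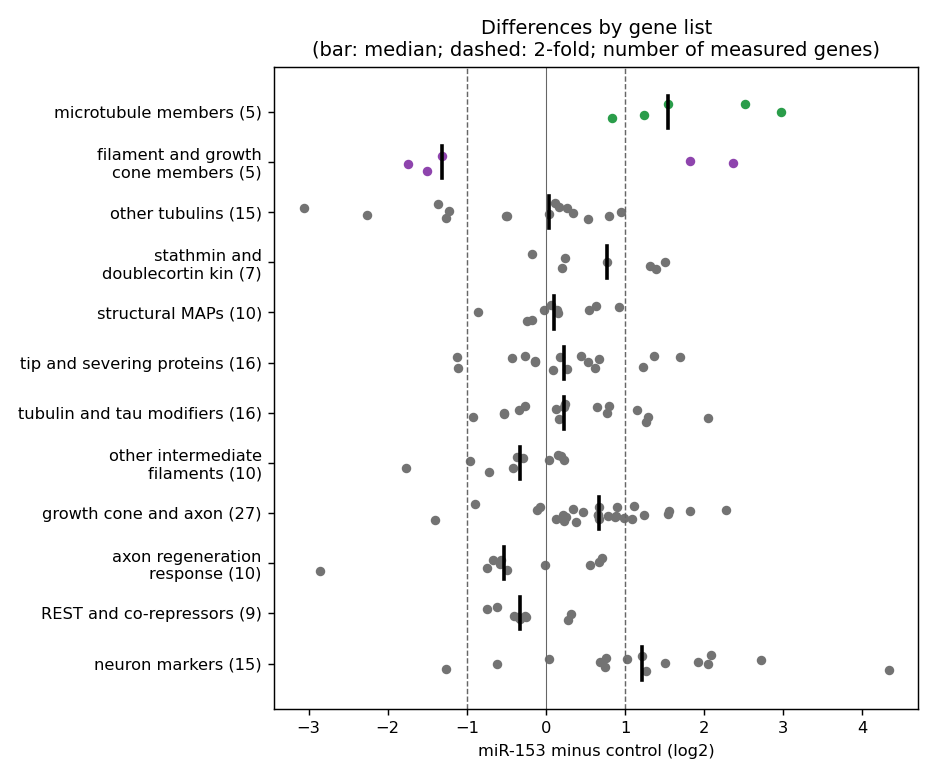
Difference (log2, miR-153 minus control) of every measured gene in the member groups and in 10 other lists, each dot a gene, black bars the median and dashed lines 2-fold. The microtubule members all lie above 0, the filament and growth cone members lie on both sides with none near 0, and the other tubulins reach from -3.06 to 0.95.

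Other intermediate filaments were mostly between the 2-fold lines. Of 10 measured, 0 were higher and 1 lower, the nuclear lamin gene Lmna, at -1.77, with a median of -0.33. With so few genes, those counts are near the shares over all genes, 9.21% higher and 11.1% lower. The progenitor filaments Nes (-0.95) and Vim (-0.72) were short of 2-fold. Prph, the filament of peripheral and motor neurons, which assembles with the triplet, was detected in the control alone and was at least 2.19-fold lower with miR-153. Its single probe was dim there, at a level of -3.73, where the lowest level well above background was -4.34.

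Of 27 growth cone and axon genes, 7 were at least 2-fold higher and 1 lower, with a median of 0.67, and 12 were higher after quantile normalization, lowess or spike-in scaling. In the main setting those are 25.9% and 3.70%, against 9.21% and 11.1% of all genes. Dpysl4, of the collapsin response family, was 4.85-fold higher (2.28), Fez1, a kinesin adaptor, 3.53-fold (1.82), Dbn1, an actin-binding protein of growth cones and spines, 2.94-fold (1.55) and Gprin1 2.90-fold (1.54). Tagln3 (1.24), Gprin3 (1.12, or 0.30 with normexp) and Crmp1 (1.09) completed the 7. The lower one was Nrn1, which promotes neurite growth, at -1.40. Gap43 did not go with its functional relatives, since Basp1 was at 0.90, Marcks at 0.23 and Marcksl1 at 0.67. Gap43 moved against Basp1 by -2.40 log2 units, in a range of -2.40 to -2.10 over the settings.

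Genes known from regenerating axons, where Gap43 is switched on again, had 0 of 10 higher and 1 lower, Atf3, which was 7.24-fold lower (-2.86). The median was -0.53, and with so few genes the counts are near the shares over all genes, 9.21% higher and 11.1% lower. Jun was at -0.74 and Sox11 at 0.70.

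Markers of cell types were read beside the members. Their counts stand against 9.21% of all genes at least 2-fold higher and 11.1% at least 2-fold lower. Neuron markers had a median of 1.22, with 9 of the 15 past 2-fold upward and 1 downward, and their summed linear level went from 94.1 in the control to 253 with miR-153. Celf3 (4.34), Nsg2 (2.72), Elavl4 (2.09) and Scg3 (2.05) led them, and Thy1 was at -1.26. All 15 were well above background on both arrays. Peripheral and motor neuron markers, a class rich in neurofilament, had 0 of 5 past 2-fold, which with so few genes is near those shares. Isl1 was detected only with miR-153, at least 5.43-fold higher.

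Progenitor markers had 3 of 10 higher and 0 lower, with a median of 0.17. Those higher were Hes5 (2.44), Prom1 (1.74) and Sox1 (1.15, its other probe 0.40). Their summed levels were 718 on both arrays. That sum is mostly the brightest genes, Fabp7 (0.19) and Vim (-0.72), which went in opposite directions, so it says little of the others. Oligodendrocyte markers had 5 of 10 higher and 1 lower, with a median of 1.08 and summed levels of 88.9 and 126. Astrocyte markers had 1 of 8 higher (3 with spike-in scaling, and 2 with normexp, quantile normalization, median scaling or lowess) and 0 lower, with sums of 103 and 113. In the main setting the astrocyte counts are near the shares over all genes. For Schwann and neural crest markers, Sox10 and Ngfr (2 of 5) were higher and Pmp22 lower (-2.20, its other probe -0.44), with sums of 9.01 and 10.8, and Foxd3, Cdh19 and Erbb3 were at background on both. Ngfr came to 0.60 with normexp, which left 1 of the 5 higher. Mesenchymal markers had 4 of 8 higher and 1 lower, with sums of 8.06 and 10.9. With normexp 2 were higher, since Col1a1 (1.10) came to 0.86 and Lum (1.09) to 0.70. The part of these cells in the differences of the members was not tested. The lists share genes: Sox10 counts with oligodendrocyte and crest markers, and Thy1 with neuron and mesenchymal ones. Stmn3, Nes and Vim also count in the family lists above.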

How the data were processed

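Total RNA of 2 samples, 1 per group, was labelled with Cy3 and hybridised to 1-colour Agilent arrays on the same slide, per the labels' protocols and the file headers. The authors deposited scanner output, for which the submitters' processing notes name Agilent Feature Extraction 10.7.3.1, and per the file headers its processed signal is a background-subtracted intensity. The authors' series table holds the same intensity divided by a constant (381 and 485), with column medians of 0.0662 and 0.0614. It is linear and not centred, and columns of other samples in it numbered 0.

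Levels are processed signals on a log2 scale, relative to the 75th percentile over non-control spots. A feature outlier flag on an array removed a spot (229 in all), and repeat spots were averaged. Probe accessions were matched to RefSeq symbols (GRCm38, names only), which named 26296 probes (47.2%). The brightest probe well above background on both arrays stood for a gene. Where a probe was well above background on 1 array, a bound was set against the higher of its own dim level and the lowest level well above background on the other array (-4.34 control, -4.86 miR-153). Probe positions are those of the files, on mm9 and counted from 1.

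No test was made, since a group has 1 array, and the number of arrays limits the precision. The steps were tested on simulated data. Members and lists were chosen with earlier results of these data known. Named were all members, any gene of the tubulin, stathmin and doublecortin, structural MAP, intermediate filament and growth cone lists, and from each other list at most the 4 most higher and 4 most lower past 2-fold and the bounds of at least 2-fold. Rest, Rcor1, Ctdsp2, Jun, Sox11, Gsk3b, Fabp7, the markers not above background, and the probes named by accession or position were added after their values were seen. Alternatives were normexp (limma 3.58.1, R 4.3.3, offset 50), quantile normalization, scaling on spike-in RNA or on the median, lowess on level (statsmodels 0.14.6, fraction 0.3), the series table, outlier spots kept, the mean or median of a gene's probes, no filter on dim probes, and rules of 1.5-fold and 3-fold.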

Additional observations from a re-analysis of the deposited data

How the results depend on the processing

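All 10 members kept their direction in the main setting and the 10 alternatives, and 98 of 100 alternative values kept their side of the 2-fold rule. The exceptions were Map2, at 1.08 with spike-in scaling, and Nefh, at 0.998 with normexp. Many of the 98 repeat the main value. The series table, kept outlier spots and no filter on dim probes returned the main value for every member. The mean or median of a gene's probes could not change a member with 1 measured probe. The microtubule median was 1.55 in the main setting and 1.79 with spike-in scaling, and the filament and growth cone median -1.32 and -1.08, a uniform shift that the scaling itself makes. A 3-fold rule left 2 microtubule members higher (Dcx and Tubb3) and 1 filament member lower (Nefm). Over all genes, 1887 higher and 2265 lower became 1199 and 1532 with normexp, 2840 and 1537 with spike-in scaling, and 3607 and 4371 with no filter on dim probes. Of 990 alternative values of 99 other named genes, 21 fell short of 2-fold, 27 came to pass it, 20 changed sign from a value short of 2-fold, and 0 reversed from a value past it. The cause was not tested. No paired analysis was possible because each group has 1 array. Signal limits Nefh, Dcdc2a, Gprin3, Ngfr and Prph, which are dim on the control array.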
